A study of Arabidopsis thaliana with 36 samples.

Results

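PSBY (AT1G67740), PSBW (AT2G30570) and PSAN (AT5G64040) are Arabidopsis thaliana nuclear genes for small subunits of the photosystems. The 3 genes were chosen by name, and each is represented by its brightest probe set that the probe table pairs with a single gene (245195_at, 267526_at and 247320_at). Each gene had 1 such probe set. They are 3 of 13356 genes with a single-gene probe set in the probe table. They are also 3 of the 6846 that were bright enough to be tested (a mean of at least 4 on the log2 scale over 36 arrays). The probe table pairs 13513 of the 22810 probe sets with 1 gene and 503 with several. A gene without a single-gene probe set here may therefore still be on the array.

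The samples were the aerial parts of wild-type Columbia seedlings, 10 days old, raised on agar with Murashige and Skoog salts and 1% sucrose in 16 h of light and 8 h of dark. Seedlings were taken at Zeitgeber times (ZT, hours after lights on) 0, 6, 12 and 18, and ZT18 was the only time taken in the dark period. At every time RNA was separated by the ribosomes bound to it into a large polysomal, a small polysomal and a non-polysomal fraction, with 3 replicates of each, so 12 groups and 36 arrays. Whether the replicates came from separately grown plants is not given in the sources used here. The p-values therefore describe the spread among these samples only, which may be technical.

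Messenger RNAs that carry many ribosomes sediment with large polysomes and those with few ribosomes with small polysomes. The non-polysomal fraction holds those outside polysomes. The proteins of PSBY, PSBW and PSAN are made on cytosolic ribosomes and imported into the chloroplast, where they join complexes whose core subunits are made inside the plastid. PSBY is a low-mass membrane protein of photosystem II, located near cytochrome b559. PSBW, another low-mass protein of photosystem II, is known for stabilising the supercomplexes of the photosystem with its light-harvesting antenna. PSAN lies on the lumenal face of photosystem I and takes part in electron transfer from plastocyanin.

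The deposited values are log2 expression summaries, scaled so that all arrays have nearly the same distribution, with a floor near 2.2. A value is therefore relative to the average RNA of its array, and in whole aerial tissue fewer cells of a type and less RNA per cell cannot be told apart. All 3 probe sets lay near the top of the scale. PSBY ranged over 10.08 to 13.19, PSBW over 11.74 to 13.48 and PSAN over 12.47 to 14.05, and the lowest of these values, for PSBY, was still at percentile 95.5 of its array. The median SD within the 12 groups was 0.16 for PSBY, 0.17 for PSBW and 0.15 for PSAN.

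Of 15 listed tissue markers, 4 had a single-gene probe set in the probe table. The green tissue genes SBPASE and RCA averaged 12.77 and 12.61, and the root hair gene EXPA7 lay at the floor, at no more than 2.38 on any array, while the root gene PYK10 was not at the floor (8.65 to 11.19). Replicates of a group correlated with r of 0.93 to 0.99 over the tested genes, and each of the 36 arrays was most like an array of its own group. The fractions also differed in control probe sets and in plastid-encoded genes. Within an extract, here the 3 fractions of 1 time and replicate number (12 extracts), the polyadenylated control probe sets were lower in large polysomal RNA, relative to non-polysomal RNA, by 1.88 ± 0.83 (log2, SD, n = 12), and 62 plastid-encoded genes by 1.29 ± 0.65, in 12 of 12 extracts for each. The actin 3′ minus 5′ probe set signal was higher in large polysomal RNA by 0.95 ± 0.39, again in 12 of 12 extracts. For the hybridisation control probe sets the large minus non-polysomal difference was -0.67 ± 0.18, below 0 in 12 of 12 extracts. The part of these differences in the results for PSBY, PSBW and PSAN was not tested.

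PSBY stood highest in large polysomal RNA at every time of day. In large polysomal RNA its 3 replicates read 12.63, 12.67 and 12.80 at ZT0, then 13.16, 13.19 and 13.06 at ZT6, 12.57, 12.69 and 12.55 at ZT12, and 12.19, 11.83 and 12.18 at ZT18. In small polysomal RNA they read 11.77, 11.73 and 11.97 at ZT0, 12.31, 12.13 and 12.19 at ZT6, 11.49, 11.40 and 11.10 at ZT12, and 10.79, 10.92 and 11.14 at ZT18. In non-polysomal RNA they read 11.31, 10.83 and 11.44 at ZT0, 11.72, 11.59 and 11.86 at ZT6, 10.24, 11.04 and 10.59 at ZT12, and 10.45, 10.50 and 10.08 at ZT18. At each of the 4 times the 3 fractions stood in the same order, large above small above non-polysomal, and none of their replicates overlapped. How many of the tested genes share this was not counted.

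PSBW also stood highest in large polysomal RNA on average, with much narrower gaps. In large polysomal RNA its replicates read 13.09, 12.88 and 12.61 at ZT0, 13.40, 13.30 and 13.28 at ZT6, 13.09, 12.99 and 13.14 at ZT12, and 12.69, 12.67 and 12.63 at ZT18. In small polysomal RNA they read 12.58, 12.33 and 12.31 at ZT0, 13.48, 13.28 and 13.08 at ZT6, 13.07, 12.77 and 12.88 at ZT12, and 12.50, 12.20 and 12.55 at ZT18. In non-polysomal RNA they read 12.09, 11.74 and 12.13 at ZT0, 13.02, 13.18 and 12.95 at ZT6, 12.74, 12.33 and 13.03 at ZT12, and 11.77, 12.04 and 12.18 at ZT18. Large polysomal and non-polysomal replicates did not overlap at ZT0, ZT6 and ZT18 and overlapped at ZT12. The ZT6 difference, 0.28 in the fit described below, did not pass all the same, and the share of tested genes without overlap was not counted. Large and small polysomal replicates overlapped at ZT6 and ZT12.

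PSAN had overlapping values in small polysomal and non-polysomal RNA at every time and a higher mean in large polysomal RNA at every time. In large polysomal RNA its replicates read 13.93, 13.77 and 13.89 at ZT0, 14.05, 13.97 and 13.76 at ZT6, 13.68, 13.49 and 13.40 at ZT12, and 13.57, 13.12 and 13.08 at ZT18. In small polysomal RNA they read 13.33, 13.09 and 13.20 at ZT0, 13.81, 13.67 and 13.41 at ZT6, 13.34, 13.21 and 12.81 at ZT12, and 12.78, 12.55 and 12.59 at ZT18. In non-polysomal RNA they read 13.32, 13.05 and 13.14 at ZT0, 14.02, 13.79 and 13.61 at ZT6, 13.34, 13.28 and 13.23 at ZT12, and 12.87, 12.79 and 12.47 at ZT18. The large polysomal replicates lay above those of both other fractions at ZT0, ZT12 and ZT18, and only at ZT6 did they overlap with them. Again the share of tested genes without overlap was not counted.

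**Figure D1:**
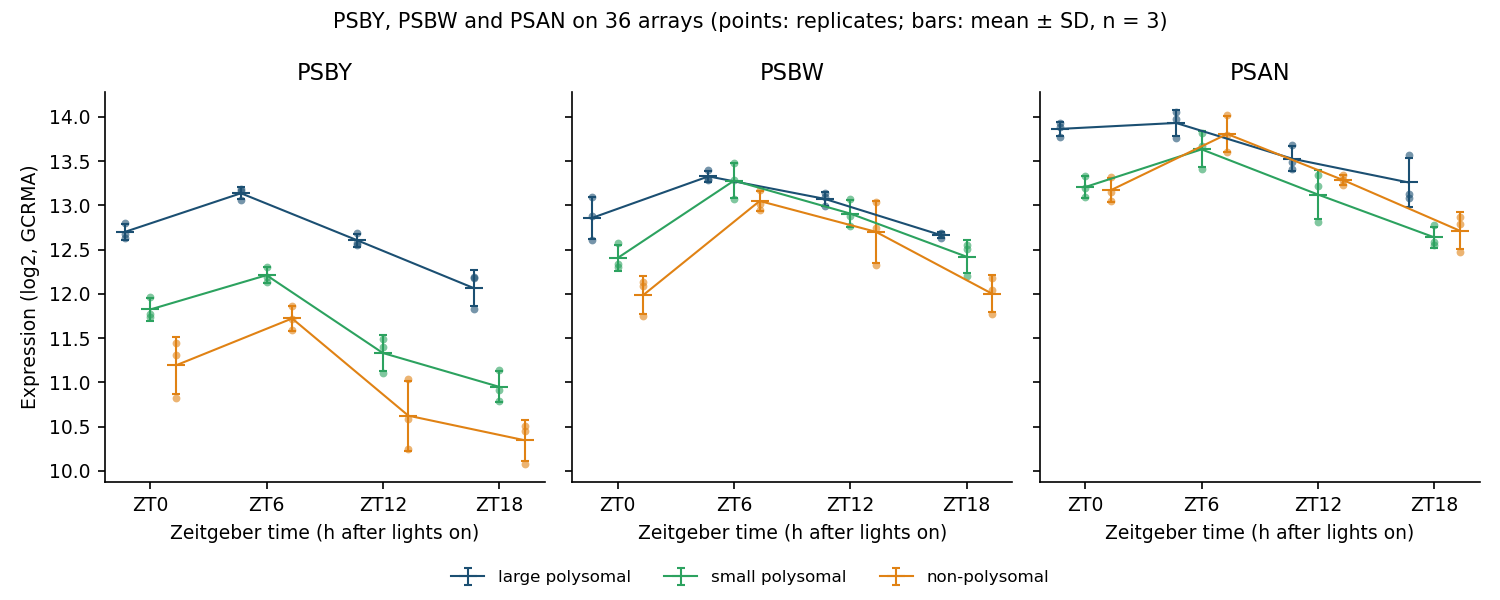
Expression (log2, y axis) of PSBY, PSBW and PSAN at 4 Zeitgeber times (x axis) in large polysomal, small polysomal and non-polysomal RNA. Points are replicates and bars the mean ± SD (n = 3). The 3 fractions of PSBY are separate at every time, those of PSBW and PSAN run close together, and all 3 genes are highest at ZT6 in large polysomal RNA; levels of different probe sets are not compared.

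Large polysomal ZT6 was the highest of the 12 groups for each gene, at 13.14 ± 0.07 for PSBY, 13.33 ± 0.06 for PSBW and 13.93 ± 0.15 for PSAN (SD, n = 3). The lowest group differed. It was non-polysomal ZT18 for PSBY (10.34 ± 0.23), non-polysomal ZT0 for PSBW (11.99 ± 0.21) and small polysomal ZT18 for PSAN (12.64 ± 0.12). When the 12 groups of a gene were put in order of their means, neighbours in that order mostly did not differ beyond their spread. None of the 11 neighbouring pairs passed for PSBY or PSBW, and 1 of 11 did for PSAN. In that pair small polysomal ZT12 was above non-polysomal ZT18 by 0.41 (limma, adjusted p = 0.0468). The pairs were picked by the same values that were tested, which favours small gaps, so these results are a description only.

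The first comparison asked how high each transcript stood in the fractions, relative to the average RNA of each. The mean of the 4 times was fitted with limma on the 36 arrays, with p-values adjusted over the 6846 genes. PSBY was 1.66 ± 0.09 higher in large polysomes than in non-polysomal RNA (log2, SE), a 3.15-fold difference with a 95% interval of 1.47 to 1.84 (adjusted p = 1.76e-16). PSBW was higher by 0.55 ± 0.09 (1.46-fold, interval 0.37 to 0.72, adjusted p = 1.21e-06) and PSAN by 0.40 ± 0.08 (1.32-fold, interval 0.23 to 0.57, adjusted p = 7.69e-05). Each of the 3 differences was above 0 in 12 of 12 extracts, over ranges of 1.20 to 2.33 for PSBY, 0.11 to 1.13 for PSBW and 0.04 to 0.74 for PSAN. Of all tested genes 40.2% were called higher in large polysomal RNA, so that all 3 genes passing says little by itself. In size PSBY lay at percentile 95.7 of the tested genes, PSBW at 71.3 and PSAN at 65.5. With cyclic loess scaling in place of the deposited scaling the differences were larger, 1.88 for PSBY, 0.81 for PSBW and 0.68 for PSAN, the last a change of over 1.5 times.

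The step between the fractions differed among the genes. From non-polysomal to small polysomal RNA, PSBY was higher in the small polysomes by 0.61 ± 0.09 (1.52-fold, adjusted p = 1.01e-06) and PSBW by 0.32 ± 0.09 (1.25-fold, adjusted p = 0.00196), above 0 in 12 and 11 of 12 extracts. The PSBW call was lost without replicate 1 (0.23, adjusted p = 0.108), and its value was 0.52 with cyclic loess. PSAN showed no such step in the limma fit (-0.09 ± 0.08, interval -0.27 to 0.08, adjusted p = 0.338; above 0 in 4 of 12 extracts), and its sign changed with the scaling, at 0.13 with cyclic loess and -0.16 with median centring, neither of them called. In this comparison 33.5% of all tested genes were called higher.

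Between the polysomal fractions all 3 genes were higher in the large one, a call made for 30.0% of the tested genes. The large polysomal value exceeded the small polysomal value by 1.05 ± 0.09 for PSBY (2.07-fold, adjusted p = 3.66e-11) and by 0.49 ± 0.08 for PSAN (1.41-fold, adjusted p = 7.73e-06), each in 12 of 12 extracts. PSBY stood at percentile 96.8 and PSAN at 82.1 of the tested genes. PSBW had the smallest difference, 0.23 ± 0.09 (1.17-fold, adjusted p = 0.0232, above 0 in 11 of 12 extracts). Its call was lost without replicate 1 (adjusted p = 0.0691), 2 (0.16) or 3 (0.0793), without the ZT6 extract of replicate 3 (0.0605) and without the ZT18 extract of replicate 2 (0.0677), over values of 0.19 to 0.26.

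**Figure D2:**
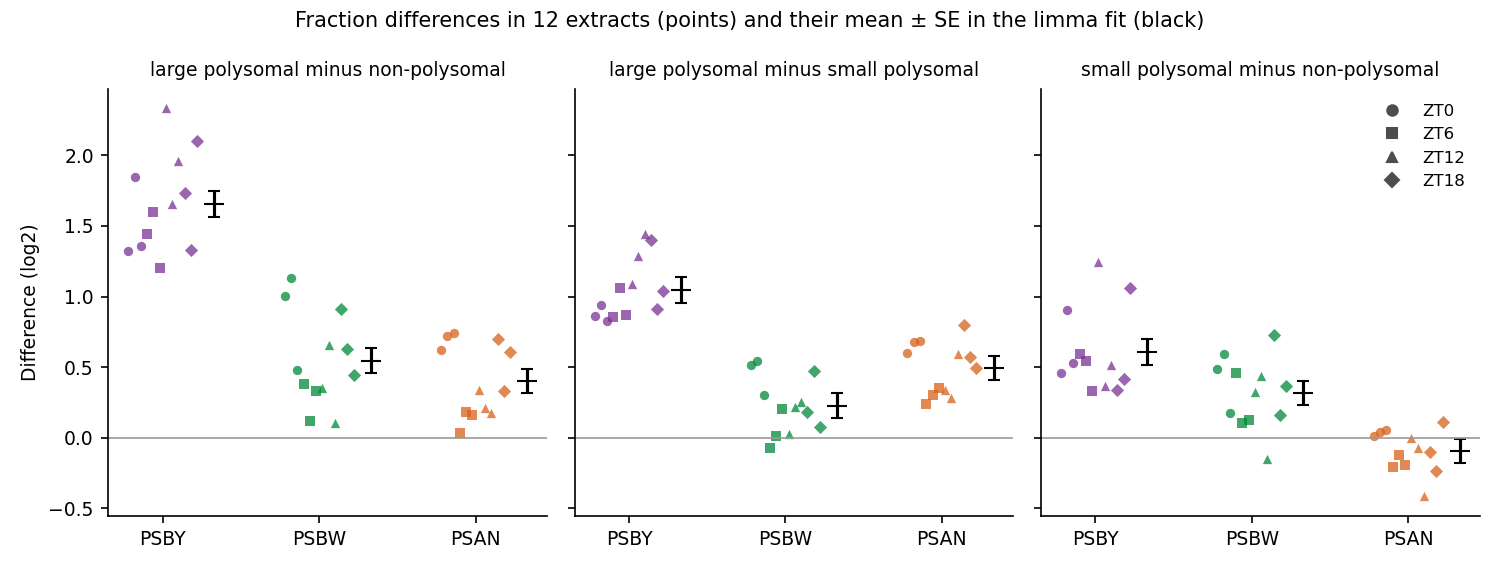
Differences between fractions (log2, y axis) for PSBY, PSBW and PSAN (x axis) in 12 extracts, shown as points with a symbol for each time, beside the limma mean of 4 times ± SE in black. For large polysomal minus non-polysomal RNA all points lie above 0, with PSBY (1.20 to 2.33) above PSBW (0.11 to 1.13) and PSAN (0.04 to 0.74).

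Each difference is taken within a probe set, so the differences can be set against each other, but the probe sets differed in brightness. Over the 36 arrays they averaged 11.72 for PSBY, 12.72 for PSBW and 13.35 for PSAN. The part of brightness in the gaps between genes was not tested. Gene by gene within extracts, 9 such contrasts were tested with an exact sign-flip test (2-sided, 12 extracts, smallest p 0.00049) and adjusted over the 9. The large minus non-polysomal difference of PSBY exceeded that of PSBW by 1.11 ± 0.51 (SD, n = 12) and that of PSAN by 1.26 ± 0.41, in 12 of 12 extracts each (adjusted exact p = 0.000628 for both). PSBW and PSAN were not separated in this measure (0.15, above 0 in 8 of 12 extracts, adjusted exact p = 0.0674), although without replicate 3 the difference passed (0.26, adjusted exact p = 0.0264). They were separated in where the step lay. The small minus non-polysomal difference was larger for PSBW than for PSAN by 0.41 in 12 of 12 extracts, and the large minus small polysomal difference was smaller for PSBW by 0.27 in 12 of 12 extracts (adjusted exact p = 0.000628 for both).

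PSBY exceeded PSAN at both steps, by 0.70 from non-polysomal to small polysomal RNA and by 0.55 from small to large polysomal RNA, in 12 of 12 extracts (adjusted exact p = 0.000628 for both). It exceeded PSBW by 0.82 from small to large polysomal RNA in 12 of 12 extracts (adjusted exact p = 0.000628). The PSBY minus PSBW difference at the lower step was 0.29, above 0 in 9 of 12 extracts (adjusted exact p = 0.0236), and it was not called without replicate 2 (0.32, adjusted exact p = 0.105) or replicate 3 (0.20, adjusted exact p = 0.219).

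The next comparison took the fractions at each time. In large polysomes PSBY exceeded its non-polysomal value at ZT0 by 1.51, at ZT6 by 1.41, at ZT12 by 1.98 and at ZT18 by 1.72 (SE 0.18 for each), with limma adjusted p from 3.35e-10 to 1.08e-07. Of the tested genes 29.1%, 28.7%, 28.2% and 29.0% were called higher at these times. PSBY kept all 4 calls in each fit that left out a replicate or an extract.

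In large polysomes PSBW exceeded its non-polysomal value at ZT0 by 0.87 (limma, adjusted p = 8.77e-05) and at ZT18 by 0.66 (adjusted p = 0.00176), with an SE of 0.17. At ZT6 its difference was 0.28 (adjusted p = 0.166) and at ZT12 it was 0.37 (adjusted p = 0.0661), which did not pass but was called when the extract was a replicate block (adjusted p = 0.0465), with a trended robust variance (adjusted p = 0.044) and without the ZT12 extract of replicate 3 (0.51, adjusted p = 0.0438). The ZT18 call was lost without replicate 1 (0.54, adjusted p = 0.0688).

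PSAN followed the same order of times. Its difference was 0.69 at ZT0 (limma, adjusted p = 0.000863) and 0.55 at ZT18 (adjusted p = 0.00697), against 0.12 at ZT6 (adjusted p = 0.538) and 0.24 at ZT12 (adjusted p = 0.221), with an SE of 0.17. The ZT18 call was lost without replicate 1 (0.47, adjusted p = 0.0641), without replicate 3 (0.52, adjusted p = 0.0516) and without the ZT18 extract of replicate 1 (0.47, adjusted p = 0.0516).

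The lower values at ZT6 and ZT12 depended on the scaling of the arrays. With cyclic loess, PSBW was higher in large polysomal RNA by 1.02 at ZT0, 0.72 at ZT6, 0.70 at ZT12 and 0.78 at ZT18, and PSAN by 0.85, 0.60, 0.61 and 0.68 at those times. All 8 differences were called in that fit, with limma adjusted p of 0.000273 and 0.000398 for PSBW at ZT6 and ZT12, and 0.00575 at both times for PSAN. The share of all tested genes called at single times with cyclic loess was not counted, for this or the other fraction comparisons. The number of calls therefore says little by itself. With median centring the ZT6 and ZT12 differences stayed below the call for both genes (0.29 and 0.35 for PSBW, 0.13 and 0.22 for PSAN).

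**Figure D3:**
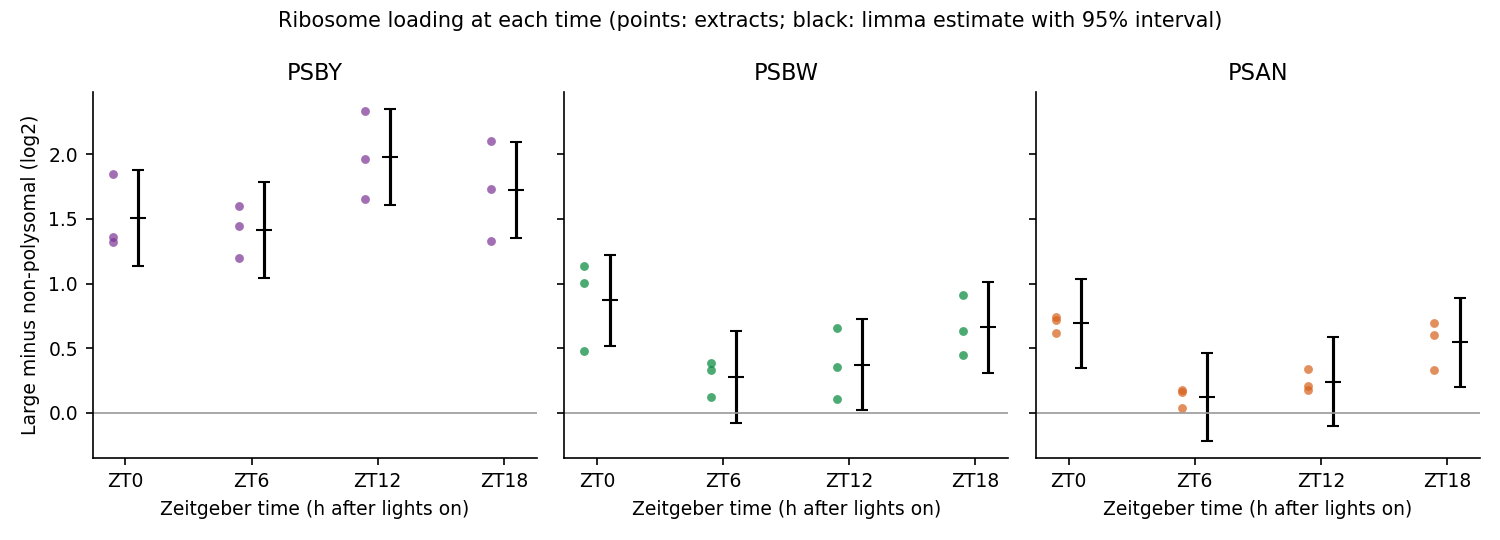
Large polysomal minus non-polysomal difference (log2, y axis) of PSBY, PSBW and PSAN at 4 Zeitgeber times (x axis). Points are extracts, and black bars are the limma estimate with its 95% interval. PSBY lies between 1.41 and 1.98 at all times, while PSBW and PSAN are highest at ZT0 (0.87 and 0.69) and lowest at ZT6 (0.28 and 0.12) on the deposited scale.

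Whether that difference changed over the day was tested directly with a moderated F test over the 4 times, which called 2.85% of the tested genes and none of the 3. The limma adjusted p was 0.516 for PSBY, 0.39 for PSBW and 0.396 for PSAN (unadjusted p = 0.147, 0.08 and 0.0824), and 0.32, 0.2 and 0.126 when the extract was a replicate block. From ZT0 to ZT6 the difference dropped by 0.59 ± 0.24 for PSBW (adjusted p = 0.242) and by 0.57 ± 0.24 for PSAN (adjusted p = 0.25), and these did not pass. Comparing ZT12 with ZT0, the change was 0.47 for PSBY, -0.50 for PSBW and -0.45 for PSAN, none of them called. The corresponding F tests for small minus non-polysomal and for large minus small polysomal RNA called 0 of the 6846 genes in limma, and the unadjusted p of the 3 genes lay between 0.385 and 0.86.

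At the single times PSBY was also higher in large than in small polysomal RNA throughout, by 0.88, 0.93, 1.27 and 1.12 at ZT0, ZT6, ZT12 and ZT18, all 4 called in limma. PSAN was higher in large than in small polysomal RNA by 0.66 at ZT0 (adjusted p = 0.0036) and by 0.62 at ZT18 (adjusted p = 0.0058), with 0.30 at ZT6 (adjusted p = 0.176) and 0.40 at ZT12 (adjusted p = 0.0672, and 0.0207 when the extract was a replicate block). With cyclic loess PSAN was called at ZT6 (0.48, adjusted p = 0.0412) and ZT12 (0.51, adjusted p = 0.0333) as well. The PSAN call at ZT0 was lost without replicate 2 (0.65, adjusted p = 0.07), and that at ZT18 without replicate 1 (0.53, 0.0757), replicate 2 (0.65, 0.0722) or the ZT18 extract of replicate 1 (0.53, 0.0576). For PSBW the same difference was 0.45 at ZT0 (adjusted p = 0.0459), 0.05 at ZT6, 0.17 at ZT12 and 0.24 at ZT18, and the ZT0 call was lost in 12 of 15 fits that left out a replicate or an extract. Of the tested genes 14.2%, 14.1%, 13.1% and 14.7% were called higher at ZT0, ZT6, ZT12 and ZT18.

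For small polysomal minus non-polysomal RNA at single times PSBY was called at all 4, by 0.63, 0.49, 0.71 and 0.60 at ZT0, ZT6, ZT12 and ZT18 (limma, adjusted p = 0.0084, 0.0349, 0.00356 and 0.0122), where 16.3%, 18.3%, 16.5% and 15.8% of the tested genes were called higher. These calls were lost in 3, 6, 2 and 2 of the 15 fits that left out a replicate or an extract, and the one at ZT6 also with median centring (0.44, adjusted p = 0.0666). PSBW gave 0.42, 0.23, 0.21 and 0.42 and PSAN 0.04, -0.17, -0.16 and -0.07 at the same times, with none called. With the extract as a block PSBW was called at ZT0 (adjusted p = 0.0389) and ZT18 (adjusted p = 0.04), and with cyclic loess at all 4 times (0.54, 0.51, 0.43 and 0.61).

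The second question was how the transcript level changed over the day. The level was taken as the mean of the 3 fractions of an extract, a stand-in for the total that gives the fractions equal weight, however much RNA each held. All 3 genes changed over the 4 times (moderated F in limma, adjusted p = 2.48e-05 for PSBY, 0.000297 for PSBW and 0.00113 for PSAN), a test that called 58.1% of the tested genes. PSBY levels were 11.90 ± 0.16, 12.36 ± 0.05, 11.52 ± 0.16 and 11.12 ± 0.03 at ZT0, ZT6, ZT12 and ZT18 (log2, SD, n = 3). PSBW levels were 12.42 ± 0.15, 13.22 ± 0.10, 12.89 ± 0.17 and 12.36 ± 0.08. PSAN levels were 13.41 ± 0.11, 13.79 ± 0.19, 13.31 ± 0.15 and 12.87 ± 0.18. Each gene had its highest mean at ZT6 and its lowest at ZT18, but PSBY and PSAN were already lower at ZT12 than at ZT0 in their means, while PSBW was higher at ZT12 than at ZT0.

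All 3 genes were higher at ZT6 than at ZT18, where 20.3% of the tested genes were called higher. The ZT6 minus ZT18 difference was 1.24 ± 0.13 for PSBY (2.36-fold, limma adjusted p = 8.84e-06), 0.86 ± 0.13 for PSBW (1.81-fold, adjusted p = 0.000242) and 0.92 ± 0.15 for PSAN (1.89-fold, adjusted p = 0.000293). In size these differences lay at percentile 95.5, 91.2 and 92.1 of the tested genes. The 3 extracts of ZT6 lay above the 3 of ZT18 for each gene, but how many of the tested genes share this was not counted. The plastid-encoded signal of the ZT18 extracts was uneven, at 7.76, 11.08 and 10.15 for replicates 1, 2 and 3, against 8.04 to 9.98 in the other extracts. Replicate 1 was the lowest at the other times too, at 8.38 at ZT0, 8.04 at ZT6 and 8.18 at ZT12. Leaving out ZT18 replicates 2 and 3 leaves 1 extract at ZT18, and such fits assume that it varies like the extracts of the other times. In that fit the difference was 1.21 for PSBY (adjusted p = 0.00135), 0.90 for PSBW (adjusted p = 0.00817) and 0.72 for PSAN (adjusted p = 0.0275).

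ZT12 and ZT0, times that lie equally far apart, were compared next. PSBW was higher at ZT12 than at ZT0 by 0.48 ± 0.13 (limma, adjusted p = 0.0128), PSBY was lower by 0.38 ± 0.13 (adjusted p = 0.0319), and PSAN gave -0.10 ± 0.15 (adjusted p = 0.626). Of the tested genes 18.4% were called higher and 18.4% lower. The PSBW call was lost without replicate 1 (0.52, adjusted p = 0.059), without replicate 3 (0.38, adjusted p = 0.157) and without the ZT0 extract of replicate 2 (0.43, adjusted p = 0.0544). The PSBY call was lost with cyclic loess (-0.34, adjusted p = 0.0687), with levels from unlogged values (-0.28, adjusted p = 0.096), without replicate 1 (-0.34, 0.211) or 3 (-0.25, 0.327), without the ZT0 extract of replicate 1 (-0.39, 0.0746) or 3 (-0.30, 0.128) and without the ZT12 extract of replicate 1 (-0.34, 0.1) or 3 (-0.33, 0.0941).

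The gene-by-gene difference in these level changes was tested with an exact permutation test of 3 extracts against 3, which cannot give a p below 0.1 and was chosen after the values were seen, with 6 tests in all. The PSBY minus PSBW level was lower at ZT12 than at ZT0 by 0.86, with no overlap between the extracts (exact p = 0.1), and the PSBW minus PSAN level was higher by 0.58, again with no overlap (exact p = 0.1). The PSBY minus PSAN level gave -0.28 for these times, with overlapping extracts (exact p = 0.2). For ZT6 minus ZT18, PSBY changed by 0.38 more than PSBW and by 0.32 more than PSAN, with no overlap in either (exact p = 0.1 for both), and PSBW and PSAN differed by -0.06 (exact p = 0.8).

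**Figure D4:**
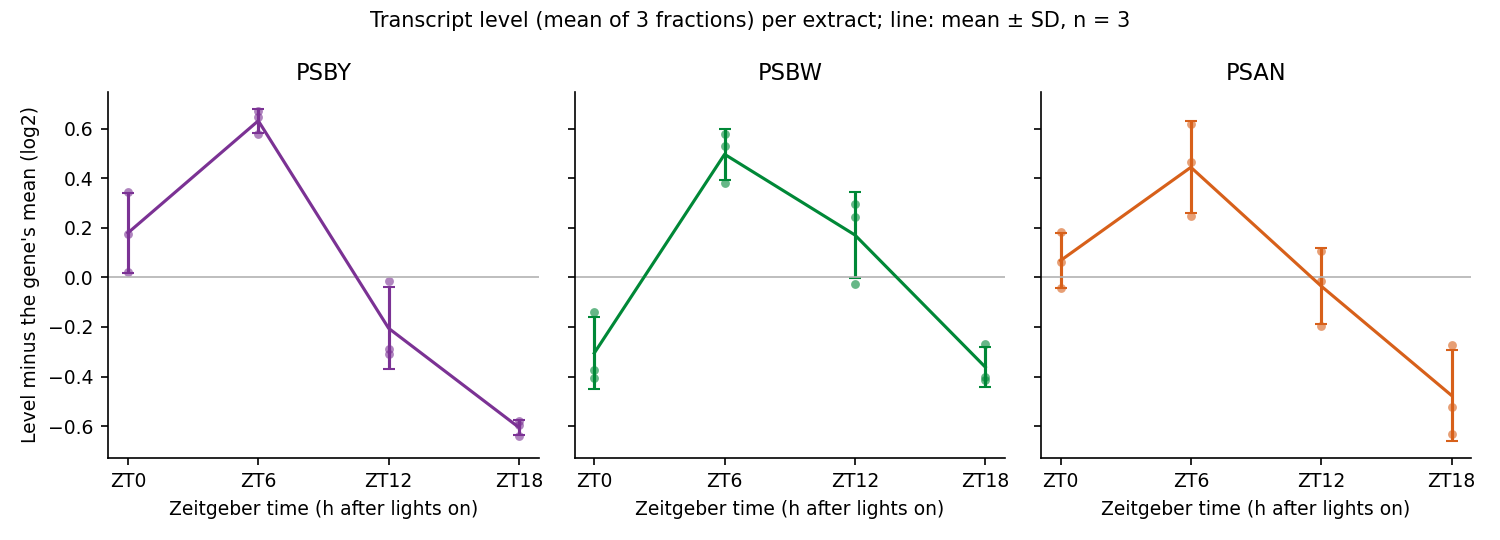
Transcript level minus the gene's own mean (log2, y axis) of PSBY, PSBW and PSAN at 4 Zeitgeber times (x axis). Points are extracts, and the line joins means with SD (n = 3). All 3 have their highest mean at ZT6 and their lowest at ZT18, and the mean of PSBW is higher at ZT12 than at ZT0 (12.89 against 12.42).

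The steps between neighbouring times filled in these courses. From ZT0 to ZT6 the level of PSBW rose by 0.80 (limma, adjusted p = 0.000362), a call kept in each fit that left out a replicate or an extract, and that of PSBY by 0.45 (adjusted p = 0.0129), a call lost in 4 of 15 such fits with an adjusted p of up to 0.112. PSAN gave 0.38 (adjusted p = 0.056; 0.0347 with cyclic loess). From ZT6 to ZT12 PSBY fell by 0.84 (adjusted p = 0.000642), a call kept in all 15 such fits, and PSAN by 0.48 (adjusted p = 0.0444), a call lost in 11 of 15. PSBW gave -0.33 (adjusted p = 0.126). From ZT12 to ZT18 the level fell by 0.40 for PSBY (adjusted p = 0.0369), by 0.53 for PSBW (adjusted p = 0.0108) and by 0.44 for PSAN (adjusted p = 0.0422), and these calls were lost in 10, 2 and 11 of 15 such fits. The highest adjusted p in them was 0.193 for PSAN from ZT6 to ZT12, and 0.266, 0.113 and 0.222 for PSBY, PSBW and PSAN from ZT12 to ZT18. The last step was also not called with median centring or cyclic loess for PSBY (adjusted p = 0.0527 and 0.136) and PSAN (0.0528 and 0.158), or without both ZT18 replicates 2 and 3 for any of the 3 (0.242, 0.0877 and 0.494). The shares of tested genes called in the matching direction were 19.5%, 7.57% and 14.3%.

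Set against ZT0, the time of lights on, PSBY was lower at ZT18 (-0.78, limma adjusted p = 0.000509). This call was kept in all 15 fits that left out a replicate or an extract. PSAN was lower at ZT18 too (-0.54, adjusted p = 0.0117), but its call was lost without replicate 2 (-0.57, 0.0739), replicate 3 (-0.47, 0.097), the ZT0 extract of replicate 1 (-0.49, 0.0517) or the ZT18 extract of replicate 3 (-0.47, 0.0502), with cyclic loess (-0.40, 0.067), and without both ZT18 replicates 2 and 3 (-0.34, 0.292). PSBW gave -0.06 with an interval of -0.34 to 0.23 (adjusted p = 0.78). Of the tested genes 18.6% were called lower at ZT18.

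All 3 genes were higher at ZT6 than at ZT18 in each fraction taken alone. The ZT6 minus ZT18 difference of PSBY was 1.07 in large polysomal, 1.26 in small polysomal and 1.38 in non-polysomal RNA, with limma adjusted p of 3.02e-05, 2.75e-06 and 6.06e-07. For PSBW it was 0.66, 0.86 and 1.05 in the same fractions (adjusted p = 0.00354, 0.000275 and 1.95e-05), and for PSAN 0.67, 0.99 and 1.09 (adjusted p = 0.00247, 3e-05 and 7.06e-06). At this contrast 15.4%, 15.8% and 20.1% of the tested genes were called higher in large polysomal, small polysomal and non-polysomal RNA. On the deposited scale the daily difference was smallest in large polysomal RNA for each gene, and the F test above did not call that change of loading. With cyclic loess the 3 fractions lay closer, at 1.14, 1.13 and 1.16 for PSBY, 0.77, 0.73 and 0.84 for PSBW, and 0.81, 0.87 and 0.89 for PSAN in large polysomal, small polysomal and non-polysomal RNA, so that the smallest was in small polysomal RNA for PSBY and PSBW. In large polysomal RNA the PSBW call was lost without replicate 1 (0.64, adjusted p = 0.0585) and without both ZT18 replicates 2 and 3 (0.64, adjusted p = 0.0939). The PSAN call there was lost without replicate 2 (0.58, adjusted p = 0.0953) and without both ZT18 replicates 2 and 3 (0.36, adjusted p = 0.345).

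The moderated F test over 4 times within a fraction called each gene in each fraction, with a limma adjusted p between 1e-06 and 0.000181 for PSBY, 5.25e-06 and 0.0118 for PSBW, and 4.41e-05 and 0.00401 for PSAN. It called 45.2% of the tested genes in large polysomal, 46.4% in small polysomal and 51.6% in non-polysomal RNA. In large polysomal RNA the call for PSBW was lost without replicate 1 (0.119), 2 (0.0762) or 3 (0.125), without the ZT6 extract of replicate 1 (0.0507) and without both ZT18 replicates 2 and 3 (0.0869), and that for PSAN without replicate 2 (0.154) or 3 (0.069) and without both ZT18 replicates (0.148), as adjusted p. The rise of PSBW from ZT0 to ZT6 was 0.47 in large polysomal, 0.87 in small polysomal and 1.06 in non-polysomal RNA (limma, adjusted p = 0.0363, 0.000209 and 1.69e-05, where 14.1%, 15.8% and 16.4% of the tested genes were called higher), the first of them lost in 8 of 15 fits that left out a replicate or an extract. PSAN over the same step gave 0.07 in large polysomal (adjusted p = 0.813), 0.43 in small polysomal (adjusted p = 0.0512) and 0.64 in non-polysomal RNA (adjusted p = 0.00406), the last lost without replicate 2 (0.58, adjusted p = 0.102).

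The 3 genes were set beside other nuclear genes of the photosystems and of electron transport. Of 35 such genes written in a list, 6 had a single-gene probe set in the probe table and all 6 were tested. The probe table names genes for only part of the probe sets, so the rest of the list may still be on the array. The other 3 were PSAE-1 (AT4G28750), a stromal subunit of photosystem I, PSB27 (AT1G03600), an assembly and repair factor of photosystem II, and ATPC1 (AT4G04640), the gamma subunit of the chloroplast ATP synthase. All 6 were called higher in large polysomes than in non-polysomal RNA, a call made for 40.2% of the tested genes, with a median of 0.47 against 0.03 over all tested genes. All 6 were called higher in large than in small polysomal RNA, a call made for 30.0% of the tested genes, with a median of 0.51. From non-polysomal to small polysomal RNA 3 of 6 were called higher and 0 lower (median 0.13 against 0.04), where 33.5% of the tested genes were called higher.

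ATPC1 lay between PSBY and PSBW in large minus non-polysomal RNA, at 1.04 ± 0.11 (limma, adjusted p = 8.6e-10). PSB27 and PSAE-1 were nearer to PSAN, at 0.38 ± 0.07 (adjusted p = 2.58e-05) and 0.25 ± 0.07 (adjusted p = 0.00245). Like PSAN, these had no called step from non-polysomal to small polysomal RNA (-0.15, adjusted p = 0.0834 for PSB27, and -0.05 for PSAE-1), while the large minus small polysomal difference was 0.53 for PSB27 and 0.30 for PSAE-1 (adjusted p = 3.33e-07 and 0.000623).

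All 6 list genes were also called higher at ZT6 than at ZT18 in level, a call made for 20.3% of the tested genes, with a median of 0.94 against 0.01 over all tested genes. PSB27 gave 1.03 ± 0.11 (limma, adjusted p = 9.75e-06), ATPC1 0.97 ± 0.17 (adjusted p = 0.000609) and PSAE-1 0.49 ± 0.12 (adjusted p = 0.00543). In ZT18 minus ZT0 the list divided into 3 called lower, which were PSBY, PSAN and PSB27 (-0.67, adjusted p = 0.000507), and 3 not called, which were PSBW, PSAE-1 (-0.03, adjusted p = 0.849) and ATPC1 (-0.05, adjusted p = 0.85), where 18.6% of the tested genes were called lower. In ZT12 minus ZT0 2 were called higher, PSBW and ATPC1 (0.57, adjusted p = 0.0182), and PSBY was called lower, where 18.4% of the tested genes were called higher and 18.4% lower. This order of the genes was chosen after their values were seen and has no test.

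**Figure D5:**
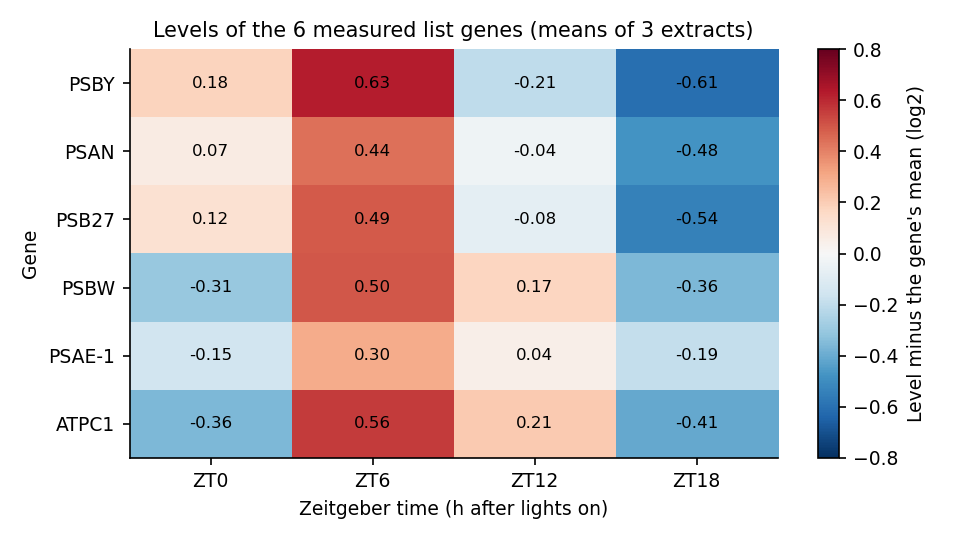
Level minus the gene's own mean (log2, colour and printed values) of 6 list genes (rows) at 4 Zeitgeber times (columns), as means of 3 extracts. All are highest at ZT6. PSBY, PSAN and PSB27 are above their mean at ZT0 (0.18, 0.07 and 0.12), and PSBW, PSAE-1 and ATPC1 are below theirs (-0.31, -0.15 and -0.36).

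The tested genes most like each member in their course over the 12 group means were also taken, as a description with no test, since the groups share arrays and their scaling. For PSBY they were AT2G20230, AT5G43260, AT2G44920, ATSBT5.2 (AT1G20160), a subtilase, and TRXF2 (AT5G16400), an f-type thioredoxin of the chloroplast, with Pearson r of 0.96 to 0.97 over the 12 means and 0.89 to 0.92 over the 36 arrays. For PSBW they were HEME2 (AT2G40490), a uroporphyrinogen decarboxylase of tetrapyrrole synthesis, at r = 0.99, GSTL3 (AT5G02790), of the lambda glutathione transferases, at 0.98, and AT3G44190, ATPC1 and AT5G02160 at 0.96 each. For PSAN they were JAL33 (AT3G16450), a jacalin-related lectin, at r = 0.99, AT3G15090 at 0.97, AT5G58330 at 0.96, PSB27 at 0.95 and AT5G05110 at 0.94. Among themselves the 3 genes had r over the 12 means of 0.72 for PSBY and PSBW, 0.81 for PSBY and PSAN, and 0.77 for PSBW and PSAN.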

How the data were processed

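Per the labels' protocols, polysomal fractions were separated and each was measured on an Affymetrix array. The deposited log2 values were made by the authors with GCRMA (affy 1.42.3, R 3.1), per the submitters' processing notes. The table held 22810 probe sets, 64 of them controls. Read depth does not apply to arrays, whose number sets the precision.

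Genes were named through the probe table, and 6823 of 6846 tested genes were found in a gene table of assembly TAIR10.1. The filter (mean of at least 4, log2) left out 6510 of 13356 genes. Fractions were compared in limma 3.58.1 (R 4.3.3) with 12 groups and no covariates, and levels over 12 extracts. Calls were made at a 2-sided Benjamini-Hochberg adjusted p under 0.05 over all tested genes. Exact tests used scipy 1.17.1 and numpy 2.4.6 (Python 3.11.15). The limma step was also tested on simulated data, with noise drawn independently for each array. That simulation could therefore not check the fits under the likeness between fractions of an extract, given below. The genes named are the 3 members, every tested gene of the photosystem list, and for each member the 5 tested genes with the highest r over the 12 group means. The members and lists were chosen with earlier results of these data known.

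Deviations from the group means correlated between same-numbered fractions of a time in 36 of 36 pairs over 0.1 (r 0.13 to 0.68), against 33 of 54 between same-numbered times of a fraction (-0.39 to 0.52). Between other numbers, 2 of 72 pairs were over 0.1 for fractions of a time and 21 of 108 for times of a fraction. The same number thus also went with some likeness between times, though less than between fractions. The main level fits and the sign-flip tests used the replicate numbers to form extracts. The main fraction fits did not use them, so their p-values leave out the likeness between fractions of an extract. No main fit paired times. Alternatives changed the array scaling, the filter, the probe set rule, the variance model, the replicate block and the level, and left out replicates and extracts. Promoter and protein sequences were not used here.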

Additional observations from a re-analysis of the deposited data

How the results depend on the processing

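The fraction differences averaged over the 4 times and the ZT6 minus ZT18 levels of PSBY, PSBW and PSAN kept their direction under each alternative run, except for the uncalled small minus non-polysomal value of PSAN, which changed sign with cyclic loess. Where calls were lost or gained, the cause was not tested. In fits that left out a replicate or an extract, the ZT12 minus ZT0 level of PSBY ran from -0.56 to -0.25 and that of PSBW from 0.38 to 0.58, and each was lost in some. With these fits the means over 4 times of PSBW ran from 0.23 to 0.41 for small minus non-polysomal RNA and from 0.19 to 0.26 for large minus small polysomal RNA. The PSBY minus PSBW difference of the small minus non-polysomal step ran from 0.20 to 0.36, and the PSBW minus PSAN difference of large minus non-polysomal RNA from 0.080 to 0.26. The PSBY ZT12 minus ZT0 level was not called with cyclic loess (-0.34, limma adjusted p = 0.0687) or with levels from unlogged values (-0.28, 0.096). Without both ZT18 replicates 2 and 3, PSBW large minus small polysomal RNA was 0.21 (limma adjusted p = 0.103) and the PSBY minus PSBW difference at the lower step 0.25 (adjusted exact p = 0.0684).

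With the extract as a replicate block no fraction call was lost, and PSBW small minus non-polysomal RNA was gained at ZT0 (0.42, limma adjusted p = 0.0389) and at ZT18 (0.42, 0.04), beside those given above. A further fit took the replicate number as a block over times, which rests on the weaker likeness seen between times. In it PSAN ZT6 minus ZT0 was gained in level (0.38, limma adjusted p = 0.0245) and in small polysomal RNA (0.43, 0.0147). PSAN ZT12 minus ZT6 was gained in small polysomal (-0.51, 0.0117) and large polysomal RNA (-0.40, 0.0498). PSBW ZT18 minus ZT12 was gained in small polysomal RNA (-0.49, 0.0406). Over all tested genes, the F test on loading called 195, against 770 with the block, 0, 0 and 1 without replicates 1, 2 and 3, and 7 without both ZT18 replicates. The ZT6 minus ZT18 level called 2596 genes, against 1641 without replicate 3 and 1463 without both ZT18 replicates, and ZT12 minus ZT0 called 2518, against 1623 without replicate 1.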
